A study of Homo sapiens with 26 samples.

Results

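Budesonide, a synthetic glucocorticoid, was given alone to lung cells whose NF-κB pathway had been blocked, and binding of the glucocorticoid receptor (GR) to chromatin was compared with that in the same infected cells left without drug. The cells were A549, an established line from a human lung carcinoma. Both groups carried the adenovirus Ad-IκBαΔN, which makes a form of the NF-κB inhibitor IκBα, and both were kept in medium without serum overnight. One group was not stimulated (NS) and the other received 300 nM budesonide (Bud) for 1 h. GR-bound DNA was measured by chromatin immunoprecipitation with sequencing (ChIP-seq). The regions were all those that the deposited table lists for this virus, which came to 10740 of 10740 regions of 400 bp, 21480 of 64440 values and 4 of 26 labelled libraries. Cells carrying a control virus with green fluorescent protein (Ad-GFP), given the same drug at the same dose and time, served only as a comparison. The labels name 2 libraries per group from separate experiments, but the table gives 1 value per region and group. No difference below therefore has a replicate check, an SD or a p-value. The sources used here do not say how the authors selected the regions.

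GR is a transcription factor of the nuclear receptor family that rests in the cytoplasm with chaperones until a glucocorticoid binds it. The bound receptor enters the nucleus and occupies DNA as a dimer at the glucocorticoid response element (GRE), an inverted repeat of a short hexamer with a spacer between its arms. In lung epithelium it turns on genes for phosphatases, mRNA-destabilising proteins and clock proteins, and it restrains inflammatory genes that NF-κB drives through the κB motif. IκBα holds NF-κB in the cytoplasm, and the ΔN form lacks the end that signals its destruction.

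Short stretches of the human genome (hg38, forward strand) show motif matches in selected regions. The GRE searched was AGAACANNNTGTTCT, which reads alike on both strands and contains the single arm AGAACA, and a match could differ at up to 2 of the 12 fixed bases. The first set comes from regions with high signal after budesonide, chosen for few mismatches, and capitals mark the best GRE match. Such matches are not the rule there, since only 11 of the 50 regions with the largest differences held a GRE. DDIT4 is the nearest gene to chr10:72248962-72249016, and an intron of FKBP5, for which TULP1 is the nearest start site, holds chr6:35602062-35602116. Both of these matches are exact. PER1 has 1 mismatch at chr17:8154440-8154494, as has GADD45B at chr19:2544118-2544172. FKBP5 has 2 mismatches at chr6:35722515-35722569, ZFAND5 at chr9:72365815-72365869, BATF at chr14:75536013-75536067, KLF9 at chr9:70420105-70420159, MT2A at chr16:56607321-56607375 and ERRFI1 at chr1:8071083-8071137. The FKBP5 match with 2 mismatches lies 144.5 bases from the centre of its region.
DDIT4: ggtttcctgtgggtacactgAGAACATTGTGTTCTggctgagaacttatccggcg
FKBP5 intron (nearest start site TULP1): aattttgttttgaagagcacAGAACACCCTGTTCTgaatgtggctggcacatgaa
PER1: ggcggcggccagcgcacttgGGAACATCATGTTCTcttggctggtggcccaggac
GADD45B: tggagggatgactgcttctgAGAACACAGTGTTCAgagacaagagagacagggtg
FKBP5: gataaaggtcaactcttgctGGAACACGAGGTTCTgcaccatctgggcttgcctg
ZFAND5: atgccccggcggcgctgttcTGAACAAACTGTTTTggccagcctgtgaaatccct
BATF: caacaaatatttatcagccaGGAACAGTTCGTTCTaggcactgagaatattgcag
KLF9: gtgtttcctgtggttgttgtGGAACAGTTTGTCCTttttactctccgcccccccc
MT2A: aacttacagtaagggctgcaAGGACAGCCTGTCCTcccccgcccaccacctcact
ERRFI1: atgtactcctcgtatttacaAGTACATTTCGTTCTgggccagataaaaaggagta

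The second set shows exact GRE matches in regions with little or no difference, upstream of TNFAIP3 at chr6:137707699-137707753, in an intron of ABCG2 at chr4:88196835-88196889 and upstream of TENT5A at chr6:81834021-81834075.
TNFAIP3: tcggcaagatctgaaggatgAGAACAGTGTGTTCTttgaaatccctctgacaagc
ABCG2: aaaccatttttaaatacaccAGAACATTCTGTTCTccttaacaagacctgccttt
TENT5A: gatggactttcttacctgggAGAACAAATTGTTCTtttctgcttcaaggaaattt
In the third set capitals mark a match to the κB motif. TENT5A, RASA3 and an intron of MID1 had among the lowest differences, at chr6:81816518-81816567, chr13:114086118-114086167 and chrX:10544290-10544339. RELB, NIPA1 and BIRC2 are shown because the 2 viruses differed widely there in the deposited values, at chr19:45001313-45001362, chr15:22786397-22786446 and chr11:102346058-102346107.
TENT5A: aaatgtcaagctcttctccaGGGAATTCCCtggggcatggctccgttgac
RASA3: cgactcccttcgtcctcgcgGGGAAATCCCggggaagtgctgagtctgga
MID1 intron: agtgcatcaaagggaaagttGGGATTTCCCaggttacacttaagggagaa
RELB: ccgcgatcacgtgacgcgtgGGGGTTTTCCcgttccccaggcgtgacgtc
NIPA1: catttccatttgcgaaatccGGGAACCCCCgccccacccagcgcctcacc
BIRC2: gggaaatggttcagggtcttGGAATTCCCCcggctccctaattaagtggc

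Budesonide was accompanied by higher GR signal at most regions of NF-κB-blocked cells. Signal is a mean coverage per base, read from the authors' log2 values, and a difference is taken between values of log2(signal + 1). The added 1 makes differences smaller where signal is low. Folds are ratios of signal + 1. A region counts as higher or lower when that difference is at least 1, a 2-fold difference. On this count 6373 of 10740 regions were higher with Bud (59.3%), 114 were lower (1.06%) and 4253 lay within 2-fold. The median signal was 7.79 in NS cells and 21.6 with Bud. The middle of the distribution was a log2 difference of 1.37, with quartiles of 0.28 and 2.12 and extremes of -1.95 and 7.32.

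The 2 groups differed in shape as well as in level. From the 5th to the 95th percentile of regions, NS signal ran only from 5.23 to 10.9, while Bud signal ran from 4.94 to 89.2. Across regions the difference followed the Bud level (Pearson r = 0.97) and hardly the NS level (r = -0.11), over 10740 regions that share libraries and with the difference built from the same values. NS values of this virus had an SD over regions of 0.304 on the log2 scale, against 0.627 for NS values of Ad-GFP. A signal times 400, the coverage summed over a region, was within 0.0001 of a whole number in only 1 region for this group, unlike in the other 3 groups used here. No source used here says how they were made, and their part in the results was not tested. When the groups were re-centred to a common median, 2026 regions were higher and 2923 lower, so the split between higher and lower depends on the deposited scale.

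**Figure D1:**
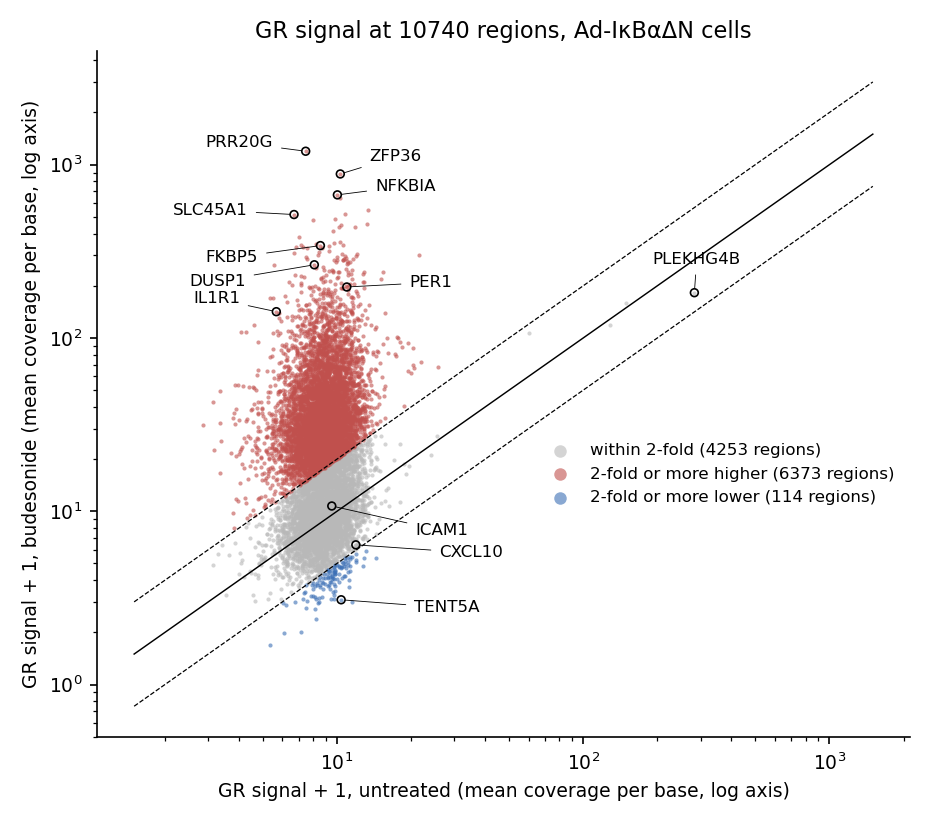
GR signal + 1 (mean coverage per base, log axes) in untreated (x) and budesonide-treated (y) Ad-IκBαΔN cells; each point is 1 region, coloured by its difference, with the line of equality and dashed 2-fold lines. Untreated signal is narrow, with most regions between 5.23 and 10.9, while budesonide signal reaches 1194 near PRR20G.

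A small number of regions stood far above the rest. Of all regions, 36 were at least 32-fold higher, with a median signal of 7.49 in NS cells and 346 with Bud. A further 851 were 8- to 32-fold higher, 2135 were 4- to 8-fold higher and 3351 were 2- to 4-fold higher. The 100 regions with the largest differences held 8.77% of all Bud signal and the top 1000 held 34.7%.

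The largest difference was at chr3:127304227-127304626, 16.4 kb upstream of PRR20G in intergenic sequence, where signal was 6.46 in NS cells and 1194 with Bud, 160.2-fold higher. The next was 2.89 kb downstream of the start of ZFP36, which encodes a protein that destabilises cytokine mRNAs, at chr19:39409536-39409935. There signal was 9.31 in NS cells and 883 with Bud (85.7-fold). A region 58.8 kb upstream of SLC45A1, a sugar transporter gene, had 5.69 in NS cells and 514 with Bud (77.04-fold). NFKBIA, the gene of IκBα itself, had its main region over an untranslated exon at chr14:35403826-35404225, with 9.04 in NS cells and 668 with Bud (66.7-fold). That region also held a κB match.

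Other strong regions lay both close to start sites and far from them. Signal was 9.27 in NS cells and 643 with Bud in an intron of DECR1, a gene of fatty acid oxidation, 0.366 kb from its start, and ZFAND5 had 6.04 in NS cells and 384 with Bud at 0.619 kb upstream (54.7-fold). At 83.8 kb from SIK1, a salt-inducible kinase gene, it was 6.97 in NS cells and 477 with Bud. At 65.1 kb from SKOR1 it was 8.86 in NS cells and 488 with Bud. An intron of ZBTB16, a transcription factor gene that glucocorticoids induce, held the region linked to NNMT, with 6.11 in NS cells and 345 with Bud (48.6-fold). ZBTB7B had 9.80 in NS cells and 519 with Bud over an untranslated exon. SLC45A4 and PTPN1, a phosphatase gene, were also among the 10 regions with the highest Bud signal, at 544 and 455. NS signal was at most 12.4 in all 12 of these regions, under the 99th percentile of NS signal (12.6).

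Genes were then examined in 13 lists, with each region linked to the nearest protein-coding start site within 100 kb. Of 7574 linked regions, 4451 were higher (58.8%), 65 were lower and the median log2 difference was 1.37, and the lists are read against these values. For each gene the lead region is the linked region with the highest mean of its 2 values, a choice that favours high Bud signal, so counts over all linked regions are given first. A link does not show that the region regulates the gene.

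The gene of the receptor itself showed little occupancy, while a few genes of its partners had strongly occupied regions. Of 18 listed genes of the receptor, its chaperones and coregulators, only 5 had a linked region. HSP90AA1, NCOA2 and EP300 were among those without one. Of 13 regions linked to the 5 genes, 11 were higher and 0 lower, with a median log2 difference of 2.57. FKBP5, a co-chaperone that dampens GR activity and is among the best known glucocorticoid targets, had 5 regions, all higher. Its lead region in an intron at chr6:35722487-35722886 had 7.56 in NS cells and 340.1 with Bud (39.8-fold). A region 3.45 kb upstream went from 7.51 to 178, and one 88.3 kb into the gene from 4.88 to 42.1. The remaining pair went from 9.65 to 24.4 and from 7.83 to 23.4, and these 2 lie below 0 under at least 1 other scaling. An additional FKBP5 intron, nearest to the start of TULP1 and holding an exact GRE, went from 8.83 to 204 (20.8-fold). The coactivator gene NCOA3 had 7.07 in NS cells and 94.99 with Bud and a region linked to the chaperone gene HSPA8, in an intron of CLMP, 7.98 in NS cells and 94.1 with Bud. At NR3C1, the gene of GR, the lead region in an intron had 8.17 in NS cells and 8.72 with Bud, a log2 difference of only 0.083.

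Genes whose products restrain signalling carried high signal at selected regions and signal near the NS level at others. Of 80 regions linked to 18 such genes, 55 were higher and 1 lower, with a median of 1.47, close to that of all linked regions. Every one of the 18 lead regions was higher, against 64.2% of the lead regions of all 4261 linked genes. These shares are not like for like. The 18 genes had 80 regions and the 4261 had 7574, so leads here were picked from more regions per gene. DUSP1, a phosphatase that turns off MAP kinases, had 8 regions, which show the contrast within a locus. At 1.32 kb upstream of its start (chr5:172772312-172772711) signal was 7.09 in NS cells and 263 with Bud (32.7-fold), and at 4.58 kb upstream it was 6.41 in NS cells and 131 with Bud. The region 0.116 kb upstream went from 8.49 to 76.1 and the one 56.1 kb downstream from 9.87 to 79.9. Between these, at 5.55, 12.9 and 39.2 kb downstream, signal went from 10.8 to 11.03, from 9.82 to 9.14 and from 7.53 to 8.06. ERRFI1, an inhibitor of the epidermal growth factor receptor, had 7.56 in NS cells and 149 with Bud (17.6-fold) and RGS2, a regulator of G protein signalling, 6.38 in NS cells and 57.3 with Bud. ZFP36L2 and ZFP36L1, relatives of ZFP36, had 8.98 in NS cells and 102 with Bud and 6.52 in NS cells and 60.9 with Bud. The cell cycle inhibitor gene CDKN1A had 8.19 in NS cells and 60.8 with Bud. At the low end stood SPRY2, a feedback inhibitor of receptor kinases, with 7.37 in NS cells and 16.6 with Bud, a difference below 0 after re-centring. SOCS3, an inhibitor of cytokine receptors, had 10.5 in NS cells and 33.5 with Bud, below 0 under quantile normalisation, and GADD45B, a stress response gene, 6.03 in NS cells and 51.95 with Bud. No region was linked to TSC22D3, another well-known glucocorticoid target.

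Transcription factor and clock genes formed the next group. Of 50 regions linked to 14 glucocorticoid-induced transcription factor genes, 33 were higher and 0 lower, with a median of 1.65. HIF3A, a hypoxia factor gene, had 11.01 in NS cells and 304 with Bud in an intron (25.4-fold). KLF9, a Krüppel-like factor gene, had 6.77 in NS cells and 193 with Bud (24.9-fold), and CEBPD, which encodes a bZIP factor, 6.46 in NS cells and 154 with Bud. KLF6 had 7.73 in NS cells and 129 with Bud, the growth regulator gene MYC 8.14 in NS cells and 109.7 with Bud, the repressor gene BCL6 8.69 in NS cells and 98.5 with Bud and FOXO3 8.11 in NS cells and 101 with Bud. FOXO1 lay lowest, with 9.18 in NS cells and 7.92 with Bud. Of 20 regions linked to 7 clock genes, 17 were higher and 0 lower, with a median of 2.00. All 7 of 7 lead regions were higher, against 64.2% of all lead regions, but clock genes too had more regions per gene. PER1, a repressor of the clock that glucocorticoids are known to induce, had 9.96 in NS cells and 196 with Bud in an intron at chr17:8154269-8154668 (17.97-fold) and a further region that went from 10.3 to 85.02. PER2 had 10.5 in NS cells and 93.3 with Bud, a difference of 0.17 under quantile normalisation. NPAS2 had 6.33 in NS cells and 60.6 with Bud, BHLHE40 8.15 in NS cells and 49.3 with Bud and CIART 8.77 in NS cells and 43.3 with Bud. The activator gene BMAL1 went from 6.09 to 30.4 and the repressor gene CRY2 from 6.12 to 18.1, the smallest clock lead difference (2.68-fold) and below 0 when centred on the unchanged class.

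Most regions near metabolic genes were higher. Of 62 regions linked to 17 of them, 55 were higher and 0 lower, with a median of 2.23. DDIT4, an inhibitor of the growth kinase mTOR, had 9.79 in NS cells and 295 with Bud at chr10:72248785-72249184 (27.4-fold). STOM, a membrane protein gene, had 7.73 in NS cells and 183 with Bud and ACSL1, an enzyme that activates fatty acids, 7.73 in NS cells and 169 with Bud. PDK4, which restrains glucose oxidation, had 6.11 in NS cells and 112 with Bud. IRS1, an adaptor of the insulin receptor, had 8.83 in NS cells and 143 with Bud and IGFBP1, a binding protein of insulin-like growth factors, 8.27 in NS cells and 125 with Bud. ANGPTL4, an inhibitor of lipoprotein lipase, had 5.70 in NS cells and 58.5 with Bud at its lead region and 5.65 in NS cells and 47.98 with Bud at a region 11.1 kb downstream with an exact GRE. At GLUL, the glutamine synthetase gene, signal was 10.1 in NS cells and 20.9 with Bud, just under the 2-fold line. Of 5 regions linked to metallothionein genes, whose products bind metals, 4 were higher and 0 lower, with a median of 2.54. MT2A went from 7.00 to 122 and from 7.93 to 103 at 1.24 and 0.254 kb upstream, MT1X from 7.28 to 47.3 and MT1A from 8.15 to 18.8, the last below 0 after re-centring.

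Ion transport and airway genes were mixed. Of 23 regions linked to 10 ion transport genes, 9 were higher and 0 lower, and their median was 0.55 as deposited, -0.82 after re-centring and 2.76 for links within 25 kb. SLC19A2, a thiamine transporter gene, had 11.9 in NS cells and 240.0 with Bud (18.7-fold), with 0.47 log2 under quantile normalisation, and SCNN1B, a subunit of the epithelial sodium channel, 8.01 in NS cells and 77.5 with Bud. AQP3, a water and glycerol channel gene, had 7.17 in NS cells and 65.1 with Bud. SGK1, the kinase that glucocorticoids induce to raise sodium uptake, had 7.79 in NS cells and 4.53 with Bud at its lead linked region. Of 13 regions linked to 9 airway effector genes, 6 were higher and 1 lower, with a median of 0.82. ANXA1, an anti-inflammatory annexin gene, had 7.58 in NS cells and 92.5 with Bud. A region 66.5 kb from PDE4D, a phosphodiesterase gene, went from 9.23 to 3.81 and was the lower one.

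Markers of the lung epithelium, the tissue that A549 models, had 28 linked regions at 13 genes, of which 20 were higher and 0 lower, with a median of 1.60. KRT7, a keratin gene of simple epithelia, had 5.94 in NS cells and 154 with Bud (22.4-fold), KRT18, through a region in the neighbouring KRT8, 10.4 in NS cells and 143 with Bud, with 0.58 log2 under quantile normalisation, and EPCAM, an epithelial adhesion gene, 9.08 in NS cells and 78.3 with Bud. NKX2-1, a lineage factor of lung, had 7.60 in NS cells and 35.7 with Bud, and ABCA3, a lipid transporter of alveolar cells, 9.90 in NS cells and 6.91 with Bud. The mucin gene MUC5B had 7.05 in NS cells and 71.2 with Bud, and FOXA1, an opener of chromatin, 9.59 in NS cells and 6.84 with Bud. No region was linked to the surfactant genes SFTPA1, SFTPA2, SFTPB, SFTPC and SFTPD. Markers of other cell types (leukocyte, endothelial, fibroblast, muscle, liver and neural) had only 6 linked regions at 5 of 20 genes, of which 2 were higher, with a median of 0.22. These were COL1A1, from 6.69 to 35.2, and PECAM1, from 7.95 to 24.6, the latter below 0 when centred on the unchanged class. Occupancy near a marker gene says nothing of its expression, so these lists do not check the cell type.

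Genes of the NF-κB pathway, the one that the virus blocks, lay below the median of all linked regions. Of 72 regions linked to 20 of them, 35 were higher and 2 lower, with a median of 0.76, and 36 held a κB match. Among the inhibitors, NFKBIA had 9 regions, 8 of them higher. Besides the lead region, signal went from 6.29 to 88.05 at 13.7 kb and from 8.38 to 93.98 at 30.2 kb downstream, while at 29.02 kb downstream it was 8.04 in NS cells and 8.29 with Bud. TNFAIP3, whose product A20 removes ubiquitin chains in the pathway, had 9 regions, 4 higher and 1 lower. They ran from 7.63 to 48.6 at 55.6 kb upstream and 7.16 to 35.98 in an intron to 9.97 to 4.38 at 18.3 kb upstream. At its start site, where a κB match lies, signal was 6.88 in NS cells and 10.7 with Bud. The inhibitor NFKBIE had 6.67 in NS cells and 4.75 with Bud, CYLD 10.9 in NS cells and 10.3 with Bud, NFKBIZ 8.53 in NS cells and 10.2 with Bud and TNIP1, over 8 regions, 12.1 in NS cells and 11.6 with Bud at the lead one.

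A receptor gene and a survival gene of the pathway had high signal. IL1R1, the interleukin-1 receptor gene, had 4.67 in NS cells and 141 with Bud at chr2:102048452-102048851 (25.01-fold) and BIRC3, an inhibitor of apoptosis, 7.13 in NS cells and 162 with Bud (20.1-fold). The kinase gene IRAK3, which damps the receptor's signal, had 8.91 in NS cells and 37.6 with Bud at its start site. Within 1 kb of their start sites, NF-κB subunit genes had small differences, NFKB1 from 7.87 to 9.10, NFKB2 from 7.45 to 13.8 and REL from 11.1 to 17.6. Farther away, NFKB1 had a lower region, from 6.98 to 2.855 at 24.0 kb downstream. REL had a higher one, from 7.54 to 21.1 at 19.5 kb upstream. At its start site RELB went from 8.08 to 17.6, a difference below 0 after re-centring, and at 15.1 kb downstream from 9.68 to 5.90. NFKBIA, TNFAIP3 and IRAK3 are also among the signalling inhibitors above.

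Inflammatory effector genes, induced through NF-κB, had a median below that of all linked regions. Of 88 regions linked to 27 of them, 26 were higher and 0 lower, with a median of 0.34, 33 held a κB match and 2 a GRE. The chemokine gene CCL20 had 6.80 in NS cells and 136 with Bud at 12.7 kb from its start (17.6-fold), CSF3, a granulocyte growth factor gene, 8.98 in NS cells and 91.5 with Bud and PTGS2, the inducible cyclooxygenase gene, 8.09 in NS cells and 68.4 with Bud. The cytokine genes IL6, LIF and the chemokine gene CXCL2 had 6.73 in NS cells and 26.5 with Bud, 8.67 in NS cells and 45.1 with Bud and 6.67 in NS cells and 34.7 with Bud, of which IL6 lies just below 0 when centred on the unchanged class. At the start of CXCL8, a chemokine gene, signal was 6.85 in NS cells and 20.5 with Bud, a difference below 0 when centred on the unchanged class, and its 5 other regions ended between 5.55 and 15.3. The adhesion gene ICAM1 had 8.52 in NS cells and 9.72 with Bud and CXCL10, an interferon-inducible chemokine gene, 10.9 in NS cells and 5.40 with Bud. CCL5, IL1B and TNF, which encode inflammatory cytokines, went from 10.3 to 9.18, from 8.21 to 6.83 and from 5.69 to 4.46. Some AP-1 and immediate early genes encode partners of GR at enhancers. Of 17 regions linked to 7 genes of this list, 11 were higher and 0 lower, with a median of 1.54. BATF had 8.87 in NS cells and 274 with Bud (27.9-fold) and JUNB 7.42 in NS cells and 47.3 with Bud, while IER3 had 8.09 in NS cells and 11.4 with Bud.

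The position of a list against all linked regions held under other settings for most lists. Re-centring and centring on the unchanged class shift every difference by the same amount, so neither could change that position. Under re-centring, quantile normalisation, centring on the authors' unchanged class, an offset of 5, other untreated references and links within 25 kb, the median of all linked regions was exceeded throughout by the receptor, metallothionein, metabolic, clock, transcription factor and lung lists. NF-κB signalling, inflammatory effectors and markers of other cell types lay below it throughout. Signalling inhibitors, AP-1, airway effectors and ion transport changed side under at least 1 of these settings. Medians were themselves below 0 for ion transport, NF-κB signalling, inflammatory effectors and markers of other cell types under re-centring, quantile normalisation and centring on the unchanged class, and for airway effectors under the first and the last of these. Centred on the unchanged class, those of signalling inhibitors, transcription factors, AP-1, lung genes and all linked regions were below 0 as well.

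**Figure D2:**
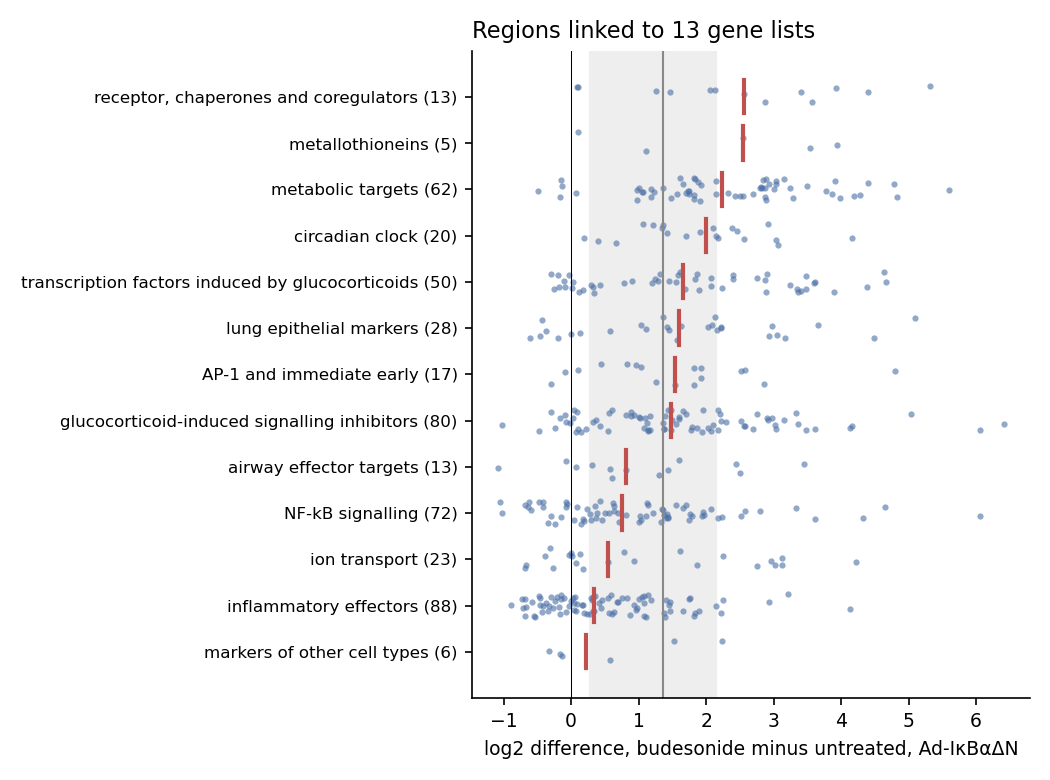
Log2 difference, budesonide minus untreated, of every region linked to each of 13 gene lists (number of regions in brackets) in Ad-IκBαΔN cells; points are regions, spread vertically at random, red bars are list medians, the grey line and band are the median and quartiles of all 7574 linked regions. List medians run from 0.22 for markers of other cell types to 2.57 for the receptor, chaperones and coregulators.

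Regions with large differences were rich in the GRE and those with small differences were rich in the κB motif. A GRE match was found in 14.7% of regions (95% Wilson interval 14.1 to 15.4) against 2.63% of windows of the same length 5 kb away. Among regions higher with Bud 20.7% held one, against 5.95% of the others. The κB motif, searched by its usual degenerate consensus on both strands, went the other way, with 6.34% of higher regions and 43.2% of the others, against 3.89% of windows. Regions are not replicates and neighbours are not independent, so the intervals cover counting error only.

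In deciles of the difference, the GRE share was 3.26% in the lowest and 3.63% in the next, reached 19.4% in the decile from 0.97 to 1.37 log2, and stayed between 20.0% and 20.3% up to the highest, which had 23.8% (21.4 to 26.5). The κB share was 49.4% (46.5 to 52.4) in the lowest decile, 31.4% in decile 4 and 3.54% in the highest. The AP-1 site TGACTCA kept to between 20.3% and 25.2% in every decile. The site TGTTTAC of FOXA, a factor that opens chromatin in lung, went from 8.47% to 16.6%, and the single GRE arm from 29.5% to 51.3%. Median GC content per decile lay between 43.0% and 47.0%, lowest in the lowest decile and highest in the highest, and its part in the motif shares was not tested.

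**Figure D3:**
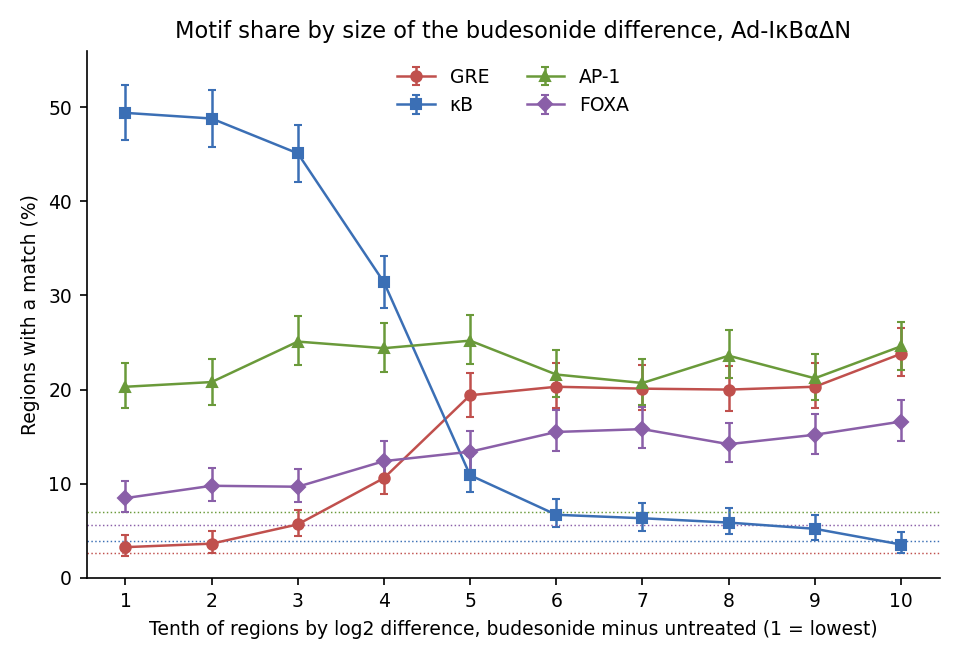
Share of regions (%) with a GRE, κB, AP-1 or FOXA match in 10 groups of 1074 regions ordered by the log2 difference, budesonide minus untreated, in Ad-IκBαΔN cells; bars are 95% Wilson intervals and dotted lines the shares in windows 5 kb away. κB matches drop from 49.4% to 3.54% while GRE matches climb from 3.26% to 23.8%, and AP-1 matches stay level.

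The authors placed each region in an increasing, unchanged or decreasing class, by a rule that no source used here states. Of the decreasing class 90.3% were higher with Bud and of the unchanged class 79.7%, but of the increasing class only 22.1%, with median differences of 1.86, 1.84 and 0.27. The motif contrast was present inside each class. In the decreasing class 33.3% of regions that were not higher held a κB match against 1.41% of those that were, in the unchanged class 37.8% against 5.19%, and in the increasing class 45.1% against 23.5%. The matching GRE shares were 7.99% against 22.7%, 6.78% against 21.6% and 5.61% against 12.7%.

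Both motifs in a region went with intermediate differences. The 1445 regions with a GRE and no κB match had a median log2 difference of 1.86, and 87.3% of them were higher. The 2155 with a κB match and no GRE had a median of 0.12, and 16.0% were higher. For the 135 regions with both, the median was 0.83 and 43.7% were higher. The 7005 regions with neither were still 67.2% higher, with a median of 1.55, so most occupied regions held no GRE by this search.

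Regions with few mismatches to the GRE had higher differences than those with many. The 44 regions with an exact match had a median of 1.87, the 324 with 1 mismatch 1.77 and the 1212 with 2 mismatches 1.82. With 3, 4 and 5 mismatches at best the medians were 1.59, 1.06 and 0.52. The share of regions at least 2-fold higher was 90.9% for exact matches, 81.8% and 83.7% for 1 and 2 mismatches, and 68.6%, 51.4% and 35.9% for 3, 4 and 5. Of the 500 largest differences 7 had an exact match. Of the 50 largest differences, 11 had a GRE (22.0%, 12.8 to 35.2) and 0 an exact one. Matches lay near the middle of the regions, with 63.7% of 1580 within 25 bases of the centre, against 11.0% of 282 matches in the distant windows.

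**Figure D4:**
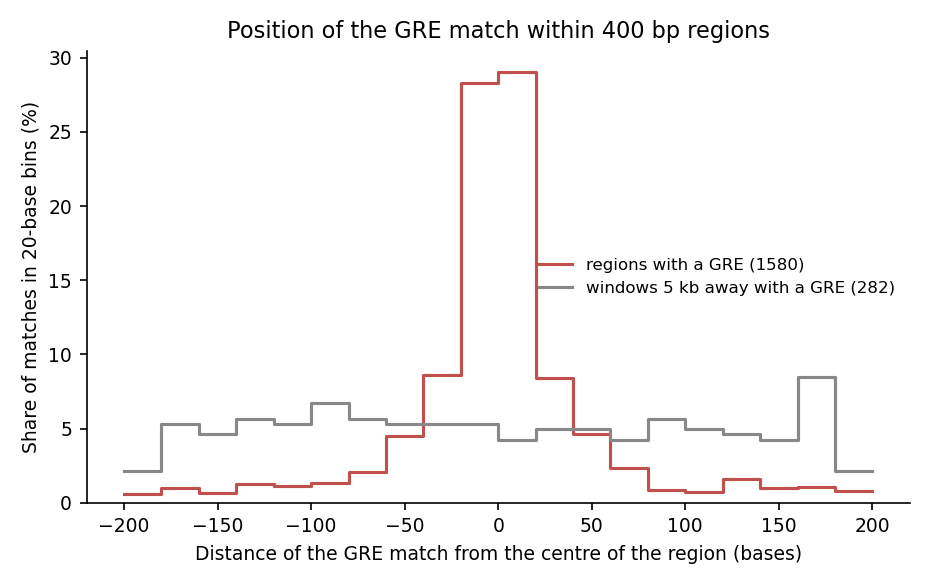
Distance (bases) of the best GRE match from the centre of its 400 bp region, as the share of matches in 20-base bins, for regions and for windows 5 kb away. Matches in regions pile up at the centre, with 29.1% in the bin from 0 to 20 bases, while matches in windows are spread across the length.

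Exact matches were found both in strongly occupied regions and in regions with almost no difference. Besides DDIT4 and the FKBP5 intron, an intron of NEDD4L, a ubiquitin ligase gene, had 6.34 in NS cells and 124 with Bud (17.02-fold) and the region near ANGPTL4 had the values given above. At the exact match 159 kb upstream of TNFAIP3 signal was 8.51 in NS cells and 8.36 with Bud, and that region held a κB match too. In the ABCG2 intron it was 6.30 in NS cells and 7.20 with Bud, and upstream of TENT5A 9.17 in NS cells and 13.5 with Bud. The 12 fixed bases, printed above, are by definition the same in all of them.

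The region with the highest signal of all was a tandem repeat of GRE-like sequence. Each region was compared with itself at shifts of 15 to 100 bases. Near PRR20G the sequence matched itself best at a shift of 36 bases, with 64.3% of bases alike. The median over all regions, each at its own best shift, was 32.1%. The PRR20G region held 9 separate GRE-like matches, with at most 4 mismatches each. Of all regions 58 matched themselves at 60% or more, and 15 of these also held 7 or more GRE-like matches, of which 13 were higher with Bud. An intron of CDC123 repeated at 34 bases with 10 matches and went from 5.71 to 309. An intron of COL4A2, linked to RAB20, repeated at 90 bases with 12 matches and went from 14.4 to 239. The 3 stretches lie at chr3:127304277-127304576, chr10:12247356-12247555 and chr13:110481489-110481688, with GRE-like matches in capitals.
PRR20G: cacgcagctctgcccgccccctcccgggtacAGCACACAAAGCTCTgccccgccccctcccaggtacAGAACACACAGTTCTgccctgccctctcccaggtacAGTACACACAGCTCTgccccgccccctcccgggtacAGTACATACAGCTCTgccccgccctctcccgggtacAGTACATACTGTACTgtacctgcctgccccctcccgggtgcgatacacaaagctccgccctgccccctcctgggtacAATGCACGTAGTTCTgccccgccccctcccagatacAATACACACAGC
CDC123: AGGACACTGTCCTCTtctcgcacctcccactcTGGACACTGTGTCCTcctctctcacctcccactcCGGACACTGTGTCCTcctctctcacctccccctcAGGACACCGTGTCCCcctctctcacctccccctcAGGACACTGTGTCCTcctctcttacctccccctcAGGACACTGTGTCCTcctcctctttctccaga
RAB20: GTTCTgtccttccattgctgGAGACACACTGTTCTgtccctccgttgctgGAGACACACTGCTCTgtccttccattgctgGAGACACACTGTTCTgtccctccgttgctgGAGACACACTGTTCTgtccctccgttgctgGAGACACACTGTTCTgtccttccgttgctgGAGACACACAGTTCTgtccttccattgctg
The 58 self-matching regions as a set, these 15 included, were not more often higher. Of the 58, 30 were higher, a share of 51.7% against 59.3% of all regions. The number of GRE-like matches went with the difference over all regions. Of 1369 regions with no such match 35.7% were higher. The share was 51.7% for a single match, 62.3% for 2, 66.8% for 3 and 78.0% for the 1595 regions with 4 or more. Of the 62 regions with 7 or more, 57 were higher, and such regions made up 0.577% of regions against 0.0838% of windows. No source used here says how reads that fit several repeat units were placed, and its part in these signals was not tested.

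Only 114 regions had lower signal with budesonide, and all of them were low with it. NS signal there had a median of 8.58 and a range of 4.35 to 13.4, and Bud signal a median of 3.13 and a range of 0.70 to 4.93. None held a GRE, against 14.7% of all regions, and 58 held a κB match (50.9%, 41.8 to 59.9). The increasing class supplied 91 of them, and it made up 40.5% of all regions and 82.6% of the lowest decile of the difference. In Ad-GFP cells 107 of the 114 also had a difference below 0, where the lower quartile of all regions was -0.066. With the log2 offset raised from 1 to 5, only 2 regions were lower, and none was when regions of low mean signal were left out.

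The lowest linked differences were at chr6:81816387-81816786, 63.8 kb upstream of TENT5A, a poly(A) polymerase gene, where signal was 9.40 in NS cells and 2.08 with Bud, and in an intron of RASA3, a regulator of Ras, with 4.35 in NS cells and 0.7 with Bud. The RASA3 region is a repeat that matched itself at a shift of 54 bases with 100% of bases alike. Its difference has the opposite sign when untreated Ad-GFP cells are the reference. An intron of MID1, linked to a gene with no symbol, had 5.09 in NS cells and 0.975 with Bud, one of SLC30A7, a zinc transporter gene, 8.48 in NS cells and 2.10 with Bud, and one of AK4, linked to DNAJC6, 8.86 in NS cells and 2.44 with Bud. The lowest of all, 378 kb from ANKRD50, went from 10.5 to 2.00. All of these Bud signals lay under 3.33, the 1st percentile of regions.

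A few regions were high without drug. At chr5:11492-11891, near the end of chromosome 5 and linked to PLEKHG4B, signal was 282 in NS cells and 181 with Bud. At chr10:10117-10516 near the end of chromosome 10 it was 149 in NS cells and 157 with Bud, and at chr18:80262941-80263340 near the end of chromosome 18 127 in NS cells and 118 with Bud. Among the shifts searched, all 3 matched themselves best at 18 bases, with 81.2%, 79.8% and 87.4% of bases alike. With no shift under 15 bases searched, a shorter repeat unit would show only as a multiple of its length. The same regions were high in Ad-GFP cells, with 278 in NS and 157 with Bud, 158 in NS and 121 with Bud and 92.3 in NS and 101 with Bud respectively. Over all regions the 99th percentile of NS signal was 12.6. Input chromatin was not analysed here, so how much of this signal needs the antibody was not tested.

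The response was set beside that of Ad-GFP cells, where NF-κB was not blocked. There 6217 regions were higher with Bud (57.9%) and 874 lower (8.14%), with the same median of 1.37. Of the regions higher in NF-κB-blocked cells, 5779 were higher in Ad-GFP too, 90.7% of the one set and 93.0% of the other. Bud signal was close in the 2 viruses over regions (r = 0.98), NS signal much less so (r = 0.29), and each r is over 10740 regions with no test. The contrast lay in the lower regions, 114 against 874, and in the increasing class, whose median was 0.27 with NF-κB blocked and -0.06 without.

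The difference between the responses, Ad-IκBαΔN minus Ad-GFP, was at least 1 log2 at 1051 regions (9.79%) and at most -1 at 818 (7.62%). For the 818, the NS values differed more between viruses than the Bud values in 810, with median NS signals of 8.12 and 3.06 in the 2 viruses and median Bud signals of 26.4 and 30.4. The NS values differed more in 498 of the 1051 (47.4%) and in 65.7% of all regions. For the 1051, the median NS signal was 7.22 with NF-κB blocked and 11.8 without, and the median Bud signal 9.35 and 5.11. Of these, 757 belonged to the increasing class, which made up 40.5% of all regions. A κB match was held by 44.5% of the 1051, against 21.3% of all regions. Over all regions the difference between the responses had r = 0.74 with the Ad-GFP NS values and r = -0.17 with those of Ad-IκBαΔN. It is built from these same values. The NS values of Ad-IκBαΔN vary less over regions than those of Ad-GFP, as given above. The part of either group's NS values in both sets was not tested.

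**Figure D5:**
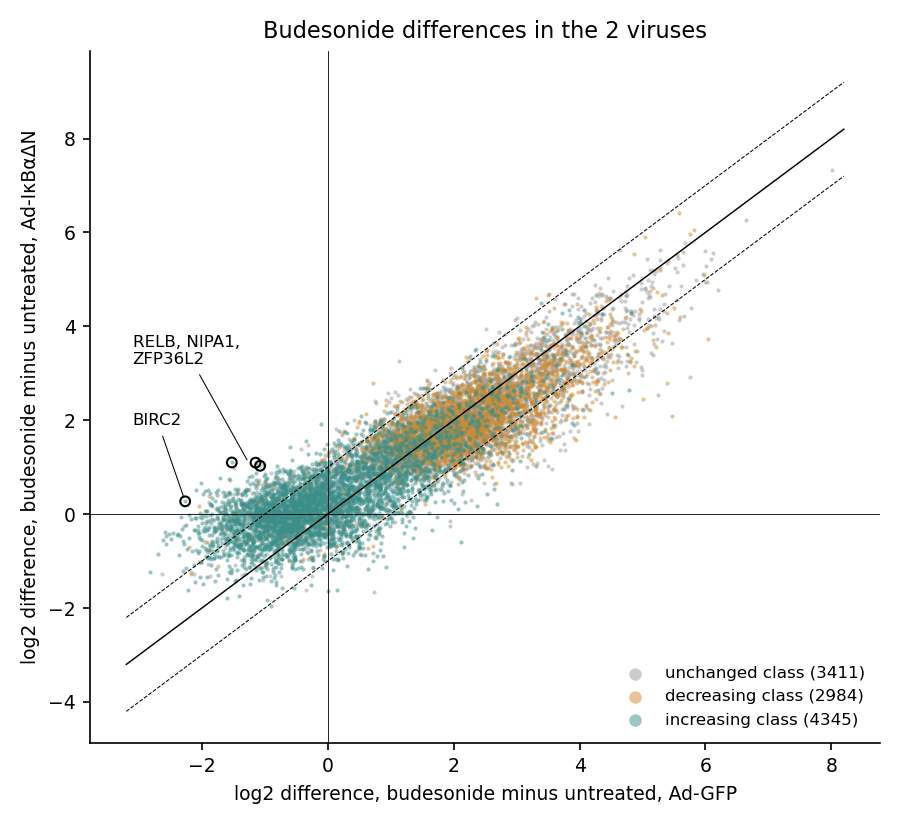
Log2 difference, budesonide minus untreated, at each of 10740 regions in Ad-GFP (x) and Ad-IκBαΔN (y) cells, coloured by the authors' class, with the line of equality and dashed lines 1 log2 away. The increasing class spreads below 0 on the x axis, where 721 of its regions were 2-fold lower, more than on the y axis, where 91 were; open circles mark the regions near RELB, NIPA1, ZFP36L2 and BIRC2.

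Single regions show how the responses parted. At 1.12 kb upstream of BIRC2, an apoptosis inhibitor gene next to BIRC3, signal in NF-κB-blocked cells was 7.69 in NS cells and 9.50 with Bud, and in Ad-GFP cells 141 in NS and 28.5 with Bud. Both values of Ad-GFP were thus higher. With NF-κB blocked the difference at BIRC2 was 0.27 as deposited, but -1.09 after re-centring and -0.60 under quantile normalisation, so its direction depends on the scale. At GJD2 and HS1BP3 signal was 5.56 in NS cells and 9.32 with Bud and 5.79 in NS cells and 8.70 with Bud with NF-κB blocked, against 12.97 in NS and 2.47 with Bud and 14.04 in NS and 2.53 with Bud in Ad-GFP. At the start of TRIP4 it was 7.46 in NS cells and 15.8 with Bud against 28.7 in NS and 9.61 with Bud. At the other extreme were regions where signal in Ad-GFP cells without drug was very low. In an intron of CXADR, the adenovirus receptor gene, signal was 9.72 in NS cells and 79.7 with Bud with NF-κB blocked and 1.17 in NS and 116 with Bud in Ad-GFP, and in one of MEAF6 7.32 in NS cells and 47.5 with Bud and 0.475 in NS and 54.98 with Bud. The Bud signals of these 2 regions differed far less between viruses than the NS signals.

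Across classes of position the response varied little except at promoters. Within 1 kb of a start site 194 of 404 regions were higher (48.0%), with a median of 0.91, against 57.0% to 60.7% of regions farther away. Introns held 5241 regions, of which 3146 were higher, and intergenic sequence 5151, of which 3029 were. Some loci gathered many regions. TCIM had 16 linked regions, 10 of them higher, SMAD3, a mediator of TGF-β signalling, 13 with 8 higher, and EDN1, the endothelin gene, 12 with 9 higher. In summed Bud signal, PYGB, a glycogen phosphorylase gene, reached 1049 over 6 regions, all higher, from 57.6 in NS cells, and PTPN1 886 over 10 regions from 80.5.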

How the data were processed

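GR ChIP-seq values came from the authors' deposited table, 1 log2 value per region and group, equal to log2(signal + 1) with signal as mean coverage per base. Per the submitters' processing notes, the build was hg38 and the tools included DiffBind 3.2, MACS2 2.2.7.1 and Bowtie2 2.4.4. No source used here states how the 2 libraries were combined or scaled, or how deep they were. Input and RELA libraries were not used here.

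Signal was recovered from the deposited log2 values, and differences were taken region by region in pandas 2.3.3 and numpy 2.4.6 under Python 3.11.15, with intervals from scipy 1.17.1 and plots from matplotlib 3.10.9. With 1 value per group no test was run. Regions were linked to the nearest protein-coding start site within 100 kb in GENCODE 44, and 9 motifs were searched on both strands. Shares carry 95% Wilson intervals. The GRE search was tested on simulated sequences with planted sites. For the difference step, the simulated shifts lay well past the threshold, so the outcome of that check was fixed in advance.

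The members and lists were chosen with earlier results of these data known. The rule for named genes took the 10 highest and 5 lowest linked differences, the 10 highest Bud signals, the 3 highest and the lowest lead regions of each list, all clock, metallothionein and NF-κB inhibitor leads, and the 5 most extreme virus differences each way. Other regions at these loci, other list genes, the repeats and the loci with many regions were named after their values were seen. Alternatives covered scaling, offset, filter, threshold, link distance, mismatches and, chosen after seeing the data, the untreated reference. Some regions that this rule names are not reported here.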

Additional observations from a re-analysis of the deposited data

Results flagged for a closer look

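In the deposited values, budesonide went with opposite 2-fold differences in the 2 viruses at regions near RELB, NIPA1 and ZFP36L2, each with a κB match. The difference between the responses, Ad-IκBαΔN minus Ad-GFP, was not tested, since each group has 1 value. It was 2.11 log2 at RELB, an NF-κB subunit gene, where signal went from 8.08 to 17.6 with NF-κB blocked and from 16.6 to 7.36 in Ad-GFP. At NIPA1, a magnesium transporter gene, it was 2.62, from 5.80 to 13.6 against 19.1 to 6.00. At ZFP36L2 it was 2.24, from 6.59 to 15.3 against 22.7 to 9.70. These opposite directions rest on the deposited scale: with NF-κB blocked, re-centring gave differences of -0.33, -0.26 and -0.27 at RELB, NIPA1 and ZFP36L2, and quantile normalisation gave -0.29, 0.65 and 0.43. Of all regions higher with NF-κB blocked, 5779 were higher in Ad-GFP and 590 lay within 2-fold.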

How the results depend on the processing

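No paired analysis was possible because the table gives 1 value per region and group, with neither a replicate block nor a library to leave out. The depth behind each value is unknown. The counts of regions higher and lower with budesonide moved most with the scale between groups. They were 2026 and 2923 after re-centring to a common median, with a median difference of 0.0024 log2. They were 1752 and 1778 under quantile normalisation, with a median of 0.00013. Centred on the unchanged class they were 1092 and 3989, with a median of -0.48. The count of lower regions was 2 with log2(signal + 5), 0 without the lowest quartile of mean signal and 14 at a threshold of 1.5 log2, while the higher counts stayed within 1.5 times. The counts of regions with a larger and a smaller response in Ad-IκBαΔN were 2112 and 2084 under quantile normalisation and 293 and 169 with log2(signal + 5). With at most 1 mismatch, 4.79% of higher regions and 1.44% of the others held a GRE. The causes were not tested.

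Some list medians fell below 0. Re-centring gave this for ion transport (-0.82), airway effectors (-0.55), NF-κB signalling (-0.60), inflammatory effectors (-1.03) and markers of other cell types (-1.14). Quantile normalisation gave it for ion transport (-0.39), NF-κB signalling (-0.50), inflammatory effectors (-0.39), markers of other cell types (-0.49) and all linked regions (-0.0097). Centred on the unchanged class it was so for all linked regions (-0.48), signalling inhibitors (-0.37), transcription factors (-0.19), AP-1 (-0.31), lung epithelial markers (-0.25), ion transport (-1.30), airway effectors (-1.03), NF-κB signalling (-1.09), inflammatory effectors (-1.51) and markers of other cell types (-1.62). For links within 25 kb it was so for markers of other cell types (-0.13). Among named regions, re-centring gave -0.33 at RELB, -0.26 at NIPA1, -0.27 at ZFP36L2 (the κB region), -0.29 at SPRY2, -0.25 at MT1A, -0.29 at CXCL8 (35.8 kb downstream) and -0.11 at FKBP5 (0.802 kb downstream). Quantile normalisation gave -0.29 at RELB, -0.67 at SOCS3, -0.27 at MT1A and -0.62 at the same FKBP5 region. Centring on the unchanged class gave -0.81 at RELB, -0.74 at NIPA1, -0.75 at ZFP36L2 (the κB region), -0.42 at CRY2, -0.25 at SOCS3, -0.77 at SPRY2, -0.014 at IL6, -0.33 at PECAM1, -0.73 at MT1A, -0.39 at the CXCL8 start, -0.77 at the other CXCL8 region, and -0.38 and -0.59 at 2 FKBP5 regions. Against untreated Ad-GFP cells, RASA3 was 0.77, NIPA1 -0.46 and the ZFP36L2 region -0.54. Of 93 named regions at least 2-fold higher as deposited, 21 were no longer so after re-centring, 36 under quantile normalisation, 27 centred on the unchanged class, 6 with log2(signal + 5), 5 against untreated Ad-GFP cells and 3 against the mean of both untreated groups.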
